A study of Mus musculus with 7 samples.

Results

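The genes described here build or switch on the axoneme, the microtubule core of the motile cilium. Members were all genes whose symbol, found through the transcript accession of an array probe, starts with Dnah, Dnaic, Dnai, Dnal, Cfap, Rsph, Tekt or Drc followed by a digit, together with *Foxj1*. The rule used names and no measured value. It found 59 of the 21367 named genes on the array, with 84 of 39429 probes, and 54 of them were among the 15701 genes bright enough to be tested. Nasal tissue with septum and turbinates was taken from female BALB/c mice that were 6 weeks old (32 in the whole study) and inhaled either 100 µg/m3 of diesel exhaust particles (DEPs) from a nebulizer chamber or, as the control of the 4-week exposure, saline. Exposure lasted 1 h daily, 5 days weekly, for 4 weeks (4 arrays) or 8 weeks (3 arrays). On each two-colour array, DEP RNA carried Cy5 and control RNA Cy3. How many mice gave RNA to an array, whether control RNA was pooled, and how the controls of the 8-week arrays were kept are not given in the sources used here.

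In a motile cilium, dynein arms fixed to the outer microtubule doublets pull on the neighbouring doublet, while radial spokes, the nexin-dynein regulatory complex and the central pair turn this sliding into a beat. In the nose, multiciliated cells of the respiratory epithelium carry such cilia and clear mucus and particles, whereas the long sensory cilia of mouse olfactory neurons do not beat. *Foxj1* encodes the forkhead transcription factor that drives the motile cilia programme, and RFX factors act beside it.

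Every value below is a log2 ratio of DEP over control within an array unless a channel intensity is named, so 0 means equal signal and 1 means a ratio of 2. The mean over the arrays of one exposure time was tested by limma with Benjamini-Hochberg adjustment over all probes, and a gene was called when the adjusted p was at most 0.05 for its brightest tested probe. Log2 ratios of replicate arrays correlated at 0.44 to 0.49 over all tested probes among the 4-week arrays and at 0.71 to 0.88 among the 8-week arrays. The dyes were never swapped, so a dye effect of a probe and an effect of DEPs cannot be told apart. The same holds for slide and exposure time, because each time was measured on its own slide. Labels number the arrays of a time as replicates, and the p-values measure the spread between these arrays. Because RNA came from whole tissue, fewer ciliated cells and less RNA per ciliated cell cannot be told apart in any of these values.

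The promoters of 50 of the 59 members are in the RefSeq table of the mouse genome (GRCm38.p6), each running from 250 bases before to 50 bases after the start of the gene. Those of 4 members are shown because their changes differed most in kind. *Cfap300* was higher at both times, *Drc1* was higher at 4 weeks and lower at 8 weeks, *Cfap69* was higher at 4 weeks alone among the calls, and *Dnah5* at 8 weeks alone. The letters GTTGCC, the half-site of RFX factors, were searched on both strands and stand in capitals (GGCAAC on the other strand). The sequences are written 5′ to 3′ on the strand of the gene, at chr9:8042826-8043125 (minus strand), chr5:30281143-30281442 (plus strand), chr5:5664183-5664482 (minus strand) and chr15:28203516-28203815 (plus strand) in this order.
Cfap300: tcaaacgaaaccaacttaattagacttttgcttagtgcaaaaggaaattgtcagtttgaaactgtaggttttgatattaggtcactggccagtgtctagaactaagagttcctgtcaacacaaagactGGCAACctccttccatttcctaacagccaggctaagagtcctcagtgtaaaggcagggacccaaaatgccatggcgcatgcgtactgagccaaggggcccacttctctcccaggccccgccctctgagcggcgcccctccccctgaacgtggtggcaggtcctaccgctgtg
Drc1: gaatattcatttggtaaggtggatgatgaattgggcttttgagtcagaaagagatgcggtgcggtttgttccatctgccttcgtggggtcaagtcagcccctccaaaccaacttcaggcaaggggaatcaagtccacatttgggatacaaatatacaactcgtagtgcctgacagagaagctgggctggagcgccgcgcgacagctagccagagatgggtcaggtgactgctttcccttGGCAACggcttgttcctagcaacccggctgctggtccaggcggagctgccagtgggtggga
Cfap69: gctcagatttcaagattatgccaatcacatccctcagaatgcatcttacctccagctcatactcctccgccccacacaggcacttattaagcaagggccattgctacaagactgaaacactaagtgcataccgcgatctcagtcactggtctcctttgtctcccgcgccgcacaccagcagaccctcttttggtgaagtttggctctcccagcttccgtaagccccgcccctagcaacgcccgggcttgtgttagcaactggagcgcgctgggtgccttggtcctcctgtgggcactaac
Dnah5: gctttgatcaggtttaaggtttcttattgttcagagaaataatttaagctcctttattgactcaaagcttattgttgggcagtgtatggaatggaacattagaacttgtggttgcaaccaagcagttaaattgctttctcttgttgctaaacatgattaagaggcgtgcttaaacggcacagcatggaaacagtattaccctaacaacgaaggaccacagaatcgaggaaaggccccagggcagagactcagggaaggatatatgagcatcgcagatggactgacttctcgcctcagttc
The half-site began at position -122 from the start in *Cfap300* and at -11 in *Drc1*, and these letters did not occur in the windows of *Cfap69* and *Dnah5*. Counted by gene, where any promoter of a gene could hold it, it stood in 19 of the 50 members (38%), against 14.1% of 27025 genes in the table. The same letters followed after any 3 bases by GCAAC stood in 3 of 50 (*Cfap20dc*, *Cfap298* and *Cfap44*), which is 6% against 0.174% of all. The forkhead letters TGTTTAC stood in 4 of 50, or 8% against 4.05%. Members with and without a higher call at 4 weeks held the half-site at like shares, 9 of 21 higher members and 10 of 24 tested members that were not called higher. Of the members whose ratio was lower at 8 weeks than at 4 weeks, 7 of 13 held the half-site. A match of letters is a description and not a binding site.

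After 4 weeks, 23 of the 54 tested members (42.6%) were higher under DEP exposure, against 20.3% of all genes tested, and only *Tekt2* was lower (1.85% of members, against 18% of all genes). Among the 23, *Dnah17* was bright enough to be tested through the DEP channel only. Its control channel was not well above background on any 4-week array. The median log2 ratio was 0.18 over the members and -0.01 over all genes tested. On the single arrays the members' median was 0.19, 0.19, 0.21 and 0.23, against 0.028, 0.009, 0.004 and -0.002 over all genes. Above 0 on 4 of 4 arrays were 30 members, and 3 were below 0 on all of them, a count that was not made for all genes. By their means 42 of the 54 were above 0, against 48.3% of all genes. The shift of the members' median was therefore small and present on all 4 arrays. It stayed above 0 with median centring in place of loess (0.11, with all genes at -0.061) and with the processed signals of the scanner software (0.39, with all genes at 0.081). Of the 24 calls, 15 held under median centring and 22 with the processed signals. With each array left out in turn, 18 of the 23 higher calls held throughout. The call of *Cfap126* was lost without replicate 3 (0.27) or 4 (0.24) of 4 weeks, that of *Dnah8* without replicate 2, 3 or 4 (0.20 to 0.23), and that of *Dnah17* without any 1 of the 4 (adjusted p between 0.0635 and 0.0962). That of *Cfap161* was lost without replicate 1, 3 or 4 of 4 weeks (0.14 to 0.21) or replicate 1 or 2 of 8 weeks, and that of *Rsph4a* without replicate 1, 2 or 3 of 4 weeks (0.24 to 0.43) or replicate 1 or 2 of 8 weeks.

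**Figure D1:**
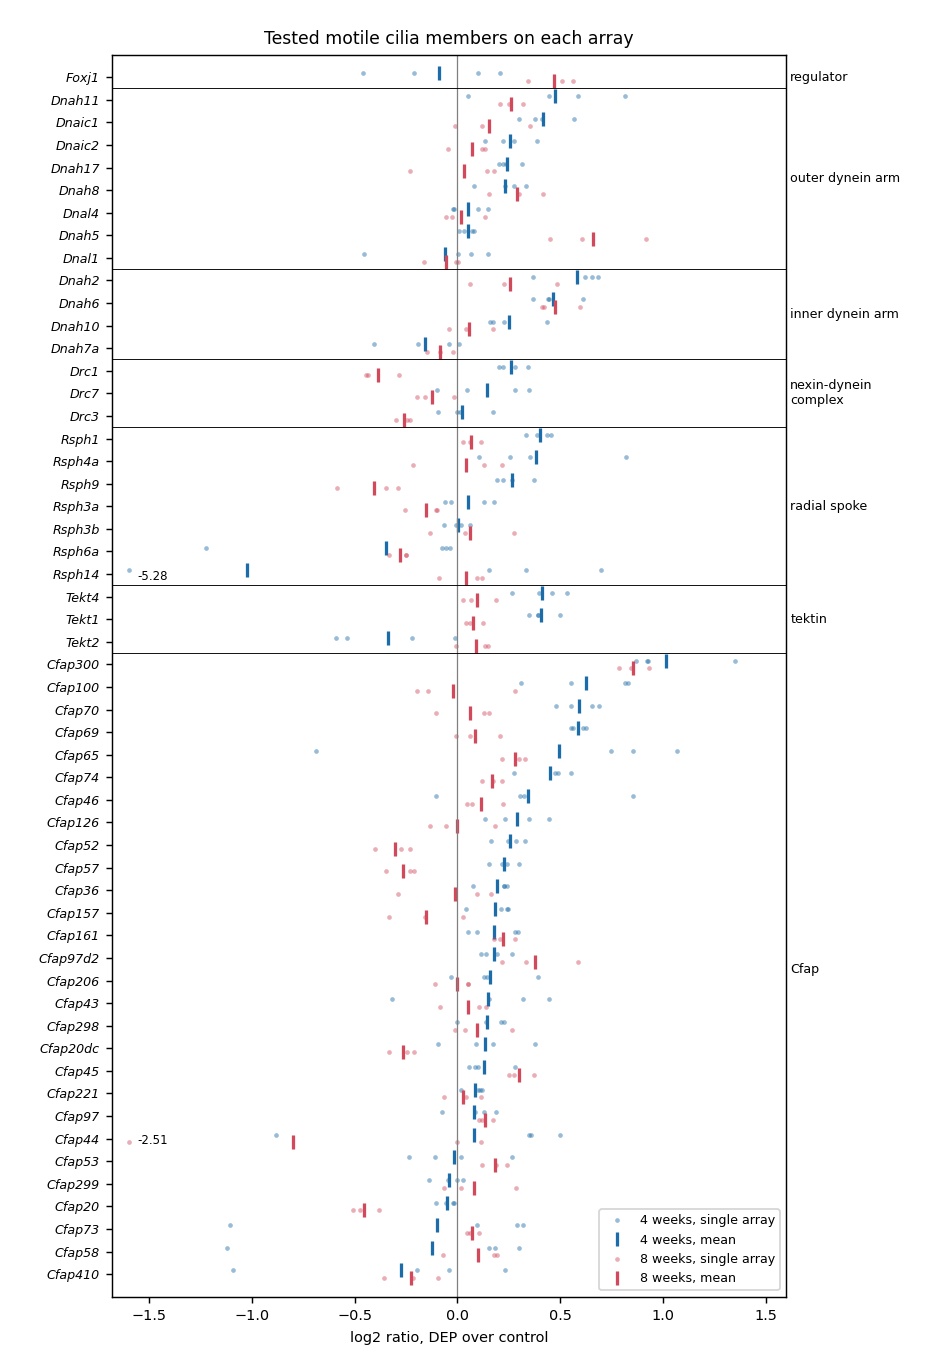
Log2 ratio of DEP over control for each of the 54 tested members (rows, grouped by role), with a point per array and a bar at the mean of the 4-week (blue, 4 arrays) and the 8-week arrays (red, 3 arrays). Points beyond -1.6 are drawn at the edge with their value beside them (*Rsph14*, -5.28, and *Cfap44*, -2.51). Most blue means lie right of 0, and red means lie on both sides of it.

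After 8 weeks the calls of the members depended on the scaling. By loess 8 were higher (14.8%, against 17.5% of all genes) and 7 lower (13%, against 19.6% of all genes), with a members' median of 0.06 against -0.019 over all genes. On the 3 arrays the members' median was 0.033, 0.095 and 0.11, and 35 of the 54 means were above 0, against 47.1% of all genes. Under median centring 2 members were higher and 16 lower, where 9.5% of all genes were higher and 38.2% lower, and the median was -0.12 for the members and -0.16 for all genes. There 9 of the 15 calls held, and *Cfap45* changed sign (0.30 by loess, -0.014 by centring). With the processed signals 14 of the 15 held. The 8-week calls of *Cfap161* (0.19 to 0.24) and *Cfap20dc* (-0.29 to -0.23) were lost without any 1 of the 8-week arrays, that of *Cfap20dc* also without replicate 1 or 3 of 4 weeks. *Dnah8* lost its call without replicate 1 or 2 of 8 weeks (0.23 and 0.29) and *Drc3* without replicate 2 of 8 weeks (-0.24). *Cfap161*, *Dnah8*, *Dnah6* and *Cfap300* were called higher at both times, while *Cfap52*, *Cfap57*, *Drc1* and *Rsph9* were called higher at 4 weeks and lower at 8 weeks.

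The difference between the exposure times was tested in the same fit. In 15 members (27.8%, against 17.7% of all genes) the log2 ratio was lower at 8 weeks than at 4 weeks, and in 2 members (3.7%, against 14% of all genes) it was higher. The median difference was -0.20 over the members and 0 over all genes, and 35 of the 54 members were below 0, where 50% of all genes were above 0. Under median centring the median was -0.29 with all genes at -0.092, and with the processed signals -0.37 with all genes at -0.12. The lower calls were *Rsph9*, *Drc1*, *Cfap100*, *Cfap52*, *Cfap70*, *Cfap69*, *Cfap57*, *Cfap20*, *Cfap20dc*, *Cfap157*, *Rsph1*, *Tekt1*, *Tekt4*, *Cfap74* and *Drc3*, and 9 of them held with any single array left out. The number of lower calls dropped to 9 without replicate 2 of 4 weeks and to 9 without replicate 2 of 8 weeks. The other calls were lost without 1 or more of the arrays, and the differences in those fits were -0.34 to -0.25 for *Cfap157*, -0.30 to -0.24 for *Cfap74*, -0.43 to -0.32 for *Cfap20dc*, -0.29 to -0.23 for *Drc3*, -0.32 to -0.28 for *Tekt4* and -0.58 to -0.56 for *Cfap100*.

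**Figure D2:**
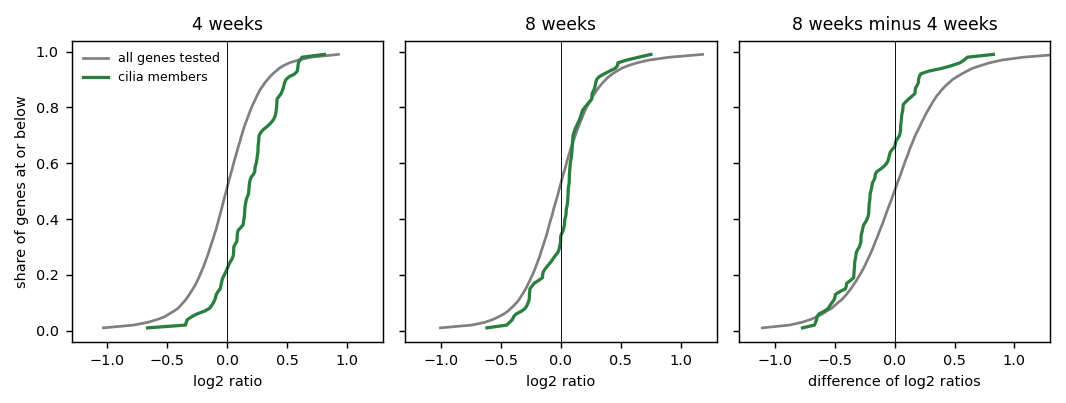
Share of genes (vertical axis) whose log2 ratio lies at or below the value on the horizontal axis, at 4 weeks, at 8 weeks and for the difference of the 2 times, for the 54 tested members (green) and all 15701 tested genes (grey). The green line lies right of the grey line at 4 weeks, close to it at 8 weeks and left of it over most of its length for the difference.

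At the thresholds of the study (an unadjusted p of 0.01 or less with a change of 2-fold or more), *Cfap300* was the single member that passed at 4 weeks, where 0.796% of all genes were higher and 0.446% lower. At 8 weeks 0 members passed by limma, against 1.6% of all genes higher and 0.981% lower, although 15 members had an adjusted p of at most 0.05. The methods' t-test also gave 1 member at 4 weeks and 0 at 8 weeks at these thresholds.

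*Foxj1* had no common direction at 4 weeks and was higher at 8 weeks. Its log2 ratio was 0.099, -0.21, 0.21 and -0.46 on the 4-week arrays and 0.51, 0.34 and 0.56 on the 8-week arrays. The 4-week values lie on both sides of 0, and all 8-week values lie above the highest of them. The mean was -0.091 ± 0.30 (SD, n = 4, adjusted p = 0.526) at 4 weeks and 0.47 ± 0.12 (SD, n = 3, adjusted p = 0.0202) at 8 weeks, with a difference of 0.56 ± 0.16 (SE, adjusted p = 0.0351). In the control channel its log2 intensity was 9.71 on average at 4 weeks and 9.83 at 8 weeks, and in the DEP channel 9.62 and 10.30. The 8-week call did not hold with median centring (0.14, adjusted p = 0.422) or without any 1 of the 8-week arrays (adjusted p between 0.0569 and 0.0983). The difference was lost without replicate 2 of 4 weeks (0.52) or any 1 of the 8-week arrays (0.52 to 0.63). The promoter table holds no *Foxj1* entry.

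Other regulators of multiciliated cells were partly higher at 4 weeks. Of 12 listed, 10 were tested, 5 were higher (50%, against 20.3% of all genes) and 1 was lower at 4 weeks, and 3 were higher (30%, against 17.5%) and 1 lower at 8 weeks, with medians of 0.26 and 0.023. *Mcidas*, which starts the multiciliated programme, rose by 0.77 ± 0.089 (SD, n = 4, adjusted p = 3.3e-05) and 0.72 ± 0.052 (SD, n = 3, adjusted p = 7.13e-05). *Myb* had 0.33 and 0.48 and *Deup1*, which takes part in the amplification of centrioles, 0.27 and 0.36, all called. *Ccno* (0.31) and *Rfx3* (0.36) were called at 4 weeks and not at 8 weeks, where they had -0.064 and -0.040, and both differed between the times (-0.38 and -0.40). *E2f5* was lower at 4 weeks (-0.26) and *E2f4* at 8 weeks (-0.25).

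Outer dynein arm genes were higher in 5 of 8 tested at 4 weeks (62.5%, against 20.3% of all genes) and in 2 of 8 at 8 weeks (25%, against 17.5%). With loess none was lower at either time by limma, against 18% and 19.6% of all genes, nor at an unadjusted p under 0.05 (0 of 8). The medians were 0.24 and 0.11, the second falling to -0.028 under median centring. That scaling left 3 higher at 4 weeks, and gave 1 higher and 1 lower at 8 weeks. The intermediate chains *Dnaic1* (0.41, adjusted p = 0.00332) and *Dnaic2* (0.26, adjusted p = 0.0108) rose at 4 weeks, as did the heavy chains *Dnah11* (0.47) and *Dnah8* (0.23). *Dnah17* was also called (adjusted p = 0.031), with mean log2 intensities of 6.40 for DEP and 6.16 for control, but its control channel was not well above background on any 4-week array and no fold is given. *Dnah11* spread widely, from 0.053 on replicate 2 to 0.81 on replicate 1. *Dnah17* and *Dnah8* are known mainly from sperm. The light chains *Dnal1* and *Dnal4* passed at neither time, and *Dnal4* had 0.052 and 0.018.

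*Dnah5*, the heavy chain whose loss is a frequent cause of primary ciliary dyskinesia, rose at 8 weeks alone among the calls. Its log2 ratio was 0.082, 0.007, 0.032 and 0.073 on the 4-week arrays and 0.45, 0.61 and 0.92 on the 8-week arrays. All 4-week values lie close to 0, and every 8-week value lies above all of them. The means were 0.049 ± 0.035 (SD, n = 4, adjusted p = 0.625) and 0.66 ± 0.24 (SD, n = 3, adjusted p = 0.000812), and the difference was 0.61 ± 0.11 (SE, adjusted p = 0.00577). Its log2 intensity rose from 8.15 on average in the DEP channel of the 4-week arrays to 9.26 at 8 weeks, and from 8.10 to 8.60 in the control channel. Together with *Foxj1* it was 1 of the 2 members whose ratio was higher at 8 weeks than at 4 weeks, against 15 in the other direction.

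Inner dynein arm genes were higher in 3 of 4 tested at 4 weeks (75%, against 20.3% of all genes) and in 1 of 4 at 8 weeks (25%, against 17.5%). *Dnah6* had the same ratio at both times, with 0.37, 0.44, 0.44 and 0.61 on the 4-week arrays and 0.42, 0.41 and 0.60 on the 8-week arrays. All 7 values are positive and the ranges overlap. Its means were 0.47 ± 0.10 (SD, n = 4, adjusted p = 0.00075) and 0.48 ± 0.10 (SD, n = 3, adjusted p = 0.00123), and the 8-week call was lost under median centring (0.16). *Dnah2* rose by 0.58 (adjusted p = 0.00133) and *Dnah10* by 0.25 (adjusted p = 0.0172) at 4 weeks, and at 8 weeks they had 0.26 (adjusted p = 0.0652) and 0.057. *Dnah7a* did not pass at either time and had -0.085 at 8 weeks.

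Of 3 tested genes of the nexin-dynein regulatory complex, which links neighbouring doublets, 1 was higher at 4 weeks (33.3%, against 20.3% of all genes) and 2 were lower at 8 weeks (66.7%, against 19.6%). *Drc1*, a base-plate subunit, had 0.20, 0.28, 0.35 and 0.22 at 4 weeks and -0.28, -0.45 and -0.44 at 8 weeks. All 4-week arrays were above 0 and all 8-week arrays below it. The means were 0.26 ± 0.064 (SD, n = 4, adjusted p = 0.00531) and -0.39 ± 0.091 (SD, n = 3, adjusted p = 0.00164), a difference of -0.65 ± 0.076 (SE, adjusted p = 0.000795). In the channels, the mean log2 intensity of the control went from 10.70 to 11.11 between the 4-week and the 8-week slide and that of DEP from 10.96 to 10.72. *Drc3* was lower at 8 weeks (-0.26, adjusted p = 0.0134), while its dimmer probe did not pass there (-0.20, adjusted p = 0.0815). *Drc7* passed at neither time and had -0.12 at 8 weeks. The direction of *Drc1* at 4 weeks was kept under median centring but its call was lost (0.15, adjusted p = 0.129).

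By loess, radial spoke genes were higher in 3 of 7 tested at 4 weeks (42.9%, against 20.3% of all genes), and 1 was lower at 8 weeks (14.3%, against 19.6%). Under median centring 1 was higher at 4 weeks (median -0.01), where 13.5% of all genes were higher. At 8 weeks 0 were higher and 4 lower under that scaling (median -0.26), where 9.5% of all genes were higher and 38.2% lower. *Rsph1*, of the spoke head, rose by 0.40 ± 0.055 (SD, n = 4, adjusted p = 0.000437) at 4 weeks and had 0.068 at 8 weeks. This was the brighter of its 2 tested probes, and the dimmer one, bright enough for DEP and control on each of the 7 arrays, had -0.078 at 4 weeks (adjusted p = 0.361, above 0 on 1 of 4 arrays) and -0.14 at 8 weeks. *Rsph4a*, also of the head, rose by 0.38 (adjusted p = 0.0375), and its other probe by 0.27 (adjusted p = 0.00643). *Rsph9*, the third head subunit, turned like *Drc1*. It had 0.37, 0.27, 0.19 and 0.22 at 4 weeks and -0.29, -0.35 and -0.59 at 8 weeks, so that no array of one time reached the other. The means were 0.26 ± 0.080 (SD, n = 4, adjusted p = 0.0128) and -0.41 ± 0.16 (SD, n = 3, adjusted p = 0.00354), and the difference was -0.67 ± 0.094 (SE, adjusted p = 0.00185). Its 4-week call was lost under median centring (0.15, adjusted p = 0.158). *Rsph3a* and *Rsph3b* passed at neither time.

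*Rsph14* and *Rsph6a* had the lowest means at 4 weeks, and in both a single array set the mean. *Rsph14* had 0.70, 0.33, -5.28 and 0.15 at 4 weeks and 0.12, 0.097 and -0.089 at 8 weeks. Without the third array its 4-week values are all positive. On that array the log2 intensity of the control channel was 12.9, against 7.03 to 7.19 on the other 4-week arrays, and that of the DEP channel was 7.62, within its range of 7.34 to 7.72. *Rsph6a* had -0.074, -0.058, -0.036 and -1.23 at 4 weeks and -0.25, -0.25 and -0.33 at 8 weeks. On replicate 4 it had a control intensity of 7.42, against 6.19 to 6.21 on the others. Neither gene was called at either time. At 4 weeks *Cfap65* (replicate 3), *Cfap58* (replicate 1), *Cfap73* (replicate 2) and *Cfap44* (replicate 3) had 1 such array each, as had *Cfap44* at 8 weeks (replicate 1). In all 6 genes the control channel was the one that stood out there. For *Cfap44* at 8 weeks the control intensity was 9.47, against 6.88 and 6.89 on the other arrays, with the DEP channel at 6.96, 6.99 and 6.89. None of the 6 genes was called, so leaving them out changed no count of calls, and the median over the members at 4 weeks was 0.19 without them.

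Tektins, filament proteins inside the doublet microtubules, were split at 4 weeks. *Tekt1* rose by 0.41 ± 0.065 (SD, n = 4, adjusted p = 0.000459) and *Tekt4* by 0.41 ± 0.11 (SD, n = 4, adjusted p = 0.00129). At 8 weeks neither was called by loess (0.075 and 0.094). Under median centring 2 of the 3 tested tektins were lower at 8 weeks (median -0.23), where 38.2% of all genes were lower. *Tekt2* had -0.59, -0.54, -0.22 and -0.012 at 4 weeks and -0.008, 0.15 and 0.13 at 8 weeks. The 4-week arrays range from clearly below 0 to 0, and the mean of -0.34 ± 0.27 (SD, n = 4, adjusted p = 0.0268) lost its call without replicate 1 (-0.26) or replicate 2 (-0.28), and with the processed signals (-0.44, adjusted p = 0.0868).

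Among the Cfap genes, which cover parts of the doublets, the central pair and the bases of the dynein arms, 9 of 28 tested were higher at 4 weeks (32.1%, against 20.3% of all genes) and 0 lower by limma (14 and 0 at an unadjusted p under 0.05). At 8 weeks 4 were higher and 4 lower (14.3% each, against 17.5% and 19.6%). The medians were 0.17 and 0.066. Median centring left 5 higher at 4 weeks and gave 1 higher and 7 lower at 8 weeks, with a median of -0.079. *Cfap300*, a factor of dynein arm assembly, had the highest mean of all members at both times. It had 1.35, 0.93, 0.92 and 0.87 on the 4-week arrays and 0.79, 0.93 and 0.84 on the 8-week arrays. All 7 arrays were far above 0 and the ranges overlap. The means were 1.02 ± 0.22 (SD, n = 4, adjusted p = 9.81e-05) and 0.85 ± 0.072 (SD, n = 3, adjusted p = 0.000398), with a difference of -0.16 ± 0.13 (SE, adjusted p = 0.361). Its mean log2 intensity was higher on the 8-week slide in both channels, with 12.04 and 13.04 for DEP and 11.02 and 12.18 for the control.

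*Cfap70*, a protein at the base of the outer arms, and *Cfap100*, which takes part in the regulation of inner arms, rose at 4 weeks and not at 8 weeks. *Cfap70* had 0.69, 0.55, 0.65 and 0.48 at 4 weeks and 0.13, 0.16 and -0.10 at 8 weeks. *Cfap100* had 0.31, 0.83, 0.81 and 0.55 at 4 weeks and -0.20, -0.15 and 0.28 at 8 weeks. In both genes every 4-week array lay above every 8-week array. The means at 4 weeks were 0.59 ± 0.097 (SD, n = 4, adjusted p = 0.00033) for *Cfap70* and 0.63 ± 0.25 (SD, n = 4, adjusted p = 0.00372) for *Cfap100*. The differences were -0.53 (adjusted p = 0.00504) for *Cfap70* and -0.65 (adjusted p = 0.0231) for *Cfap100*, the latter lost without replicate 2 of 4 weeks (-0.58) or replicate 1 (-0.56) or 2 (-0.58) of 8 weeks.

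*Cfap20*, a protein of the seam of the inner junction between the doublet tubules, was the member with the lowest adjusted p among those lower at 8 weeks. It had -0.11, -0.024, -0.016 and -0.057 at 4 weeks and -0.47, -0.51 and -0.38 at 8 weeks. All 7 values lie below 0, those of 4 weeks only slightly. The 8-week mean was -0.46 ± 0.065 (SD, n = 3, adjusted p = 0.000417) and the difference -0.41 ± 0.067 (SE, adjusted p = 0.00393). *Cfap52*, which lies inside the doublets, and *Cfap57*, which is linked to inner arms, were called higher at 4 weeks (0.26 and 0.23) and lower at 8 weeks (-0.30 and -0.26), with differences of -0.56 (adjusted p = 0.00164) and -0.49 (adjusted p = 0.00226). *Cfap45* (0.30) and *Cfap97d2* (0.38) were called higher at 8 weeks. *Cfap74*, a central pair protein, rose at 4 weeks (0.45, adjusted p = 0.000801).

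**Figure D3:**
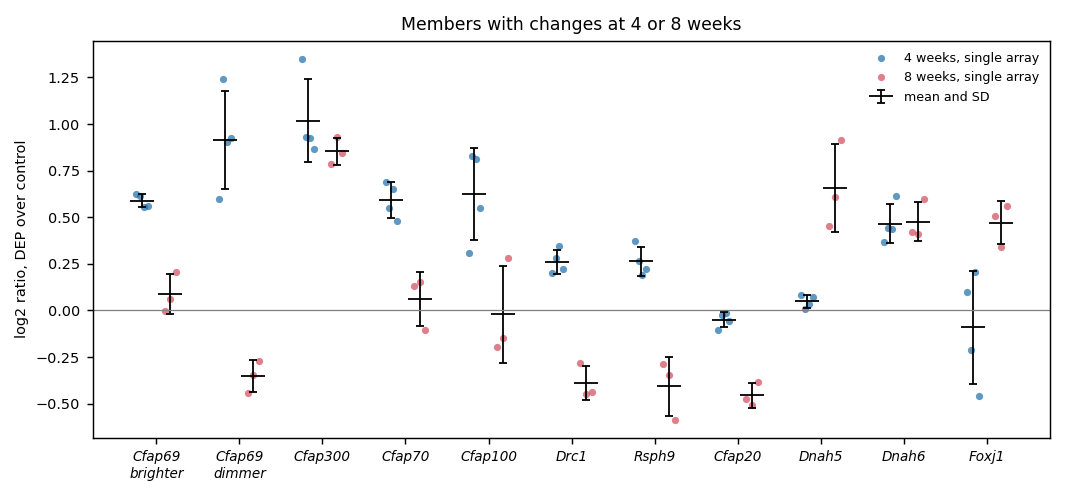
Log2 ratio of DEP over control (vertical axis) for both probes of *Cfap69* and 9 other members, with a point per array at 4 weeks (blue, 4 arrays) and 8 weeks (red, 3 arrays) and the mean with its SD. The colours separate fully in *Cfap69*, *Cfap70*, *Cfap100*, *Drc1*, *Rsph9*, *Cfap20*, *Dnah5* and *Foxj1*, and overlap in *Cfap300* and *Dnah6*.

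*Cfap69*, a ciliary protein described in olfactory neurons and in the sperm flagellum, had 2 tested probes. The brighter probe had 0.62, 0.61, 0.55 and 0.56 at 4 weeks and -0.005, 0.06 and 0.21 at 8 weeks. The 4-week arrays are tight and high, and the 8-week arrays lie near 0. Its means were 0.59 ± 0.035 (SD, n = 4, adjusted p = 0.000116) and 0.087 ± 0.11 (SD, n = 3, adjusted p = 0.27), with a difference of -0.50 ± 0.075 (SE, adjusted p = 0.00249). The dimmer probe had 0.60, 1.24, 0.90 and 0.92 at 4 weeks and -0.44, -0.35 and -0.27 at 8 weeks, so that its arrays lay on opposite sides of 0 at the 2 times. Its means were 0.92 ± 0.26 (SD, n = 4, adjusted p = 0.000311) and -0.35 ± 0.086 (SD, n = 3, adjusted p = 0.0363), with a difference of -1.27 ± 0.14 (SE, adjusted p = 0.000689). The probes differed in direction at 8 weeks alone, and under median centring the brighter probe was also lower there (-0.24, adjusted p = 0.0215).

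Both channels of *Cfap69* moved between the slides. The mean log2 intensity of the brighter probe was 9.48 in the control and 10.07 in the DEP channel at 4 weeks, and 9.88 and 9.97 at 8 weeks. That of the dimmer probe was 8.75 and 9.66 at 4 weeks, and 9.47 and 9.11 at 8 weeks. For both probes the control channel was thus brighter, and the DEP channel dimmer, on the 8-week slide.

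**Figure D4:**
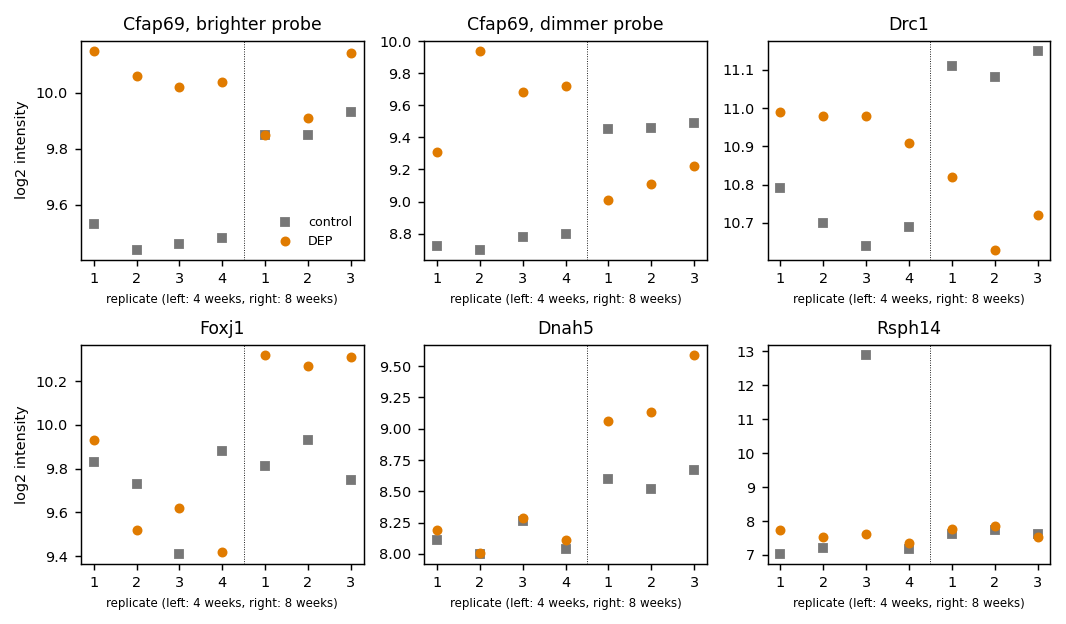
Log2 intensity (vertical axes, each panel with its own range) of the control (grey squares) and DEP channel (orange circles) on every array for both probes of *Cfap69* and for *Drc1*, *Foxj1*, *Dnah5* and *Rsph14*, with the 4-week arrays left of the dotted line. The channels change order in the dimmer *Cfap69* probe and in *Drc1*, and the control of *Rsph14* stands apart on replicate 3 (12.9).

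Set against the family, *Cfap69* ranked 4 of 54 by its mean at 4 weeks, after *Cfap300*, *Cfap100* and *Cfap70*, and 21 at 8 weeks. Its rank at 4 weeks was between 2 and 11 under the alternatives, with 11 for the processed signals. Its rank at 8 weeks was 38 under median centring, 42 by the median of its probes and 32 without replicate 3. The other 53 tested members had a median of 0.18 at 4 weeks and 0.059 at 8 weeks. Its 4-week call held under every alternative tried, with values between 0.48 and 0.75.

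*Cfap43*, *Cfap46*, *Cfap69* and *Cfap100* also stand on the study's list of changed genes. That list was chosen on these samples and is no independent evidence of direction. *Cfap46*, of the central pair, had 0.85, -0.11, 0.33 and 0.30 at 4 weeks for its brightest probe and 0.045, 0.22 and 0.07 at 8 weeks. This probe did not pass at 4 weeks (0.34 ± 0.39, SD, n = 4, adjusted p = 0.0742), whereas the other tested probes of the gene did (0.49, adjusted p = 0.000356, and 0.42, adjusted p = 0.000986). *Cfap43*, which with *Cfap44* tethers an inner arm to the doublet, had -0.32, 0.15, 0.32 and 0.45 at 4 weeks and 0.11, -0.087 and 0.14 at 8 weeks. It lay on both sides of 0 and passed at neither time (0.15 and 0.053). *Cfap44* had 0.50, 0.35, -0.88 and 0.36 at 4 weeks and -2.51, 0.11 and 0 at 8 weeks for its brighter probe, which passed at neither time. The dimmer probe was higher on 3 of 3 arrays at 8 weeks (0.25, adjusted p = 0.0452), and at 4 weeks neither of its channels was above background on any array. *Cfap410*, among the lowest means at 4 weeks, had -0.039, -0.20, -1.09 and 0.23, and -0.095, -0.36 and -0.22 at 8 weeks, without a call. On replicate 3 of 4 weeks its control intensity was 9.41, against 7.74 to 8.26 on the other 4-week arrays. The DEP channel had 8.32 there, against 7.7 to 8.07. Its dimmer probe was above 0 on 4 of 4 arrays at 4 weeks (0.16, adjusted p = 0.0581) and had -0.088 at 8 weeks. *Cfap97* had a probe that passed at 8 weeks (0.38, adjusted p = 0.0226) beside the brighter one that did not (0.13, adjusted p = 0.135).

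Of all tested members, 35 were clearly brighter than background for DEP and for control on all 7 arrays, and these had a median of 0.25 at 4 weeks and 0.075 at 8 weeks. *Cfap73*, *Dnah17*, *Dnah7a*, *Dnal1* and *Drc7* passed the brightness filter through the DEP channel only. On the 4-week arrays the control channel was not well above background on any array for *Dnah17*, *Dnah7a*, *Dnal1* and *Drc7*, nor was the DEP channel for *Rsph6a*. *Dnah17* was the one call among these 5. Against the dimmest signal that counts as above background, only *Rsph6a* keeps a fold over 1 (at least 1.19-fold lower under DEP exposure, adjusted p = 0.179), and this bound rests on the control channel of replicate 4. *Dnah1*, *Dnah9*, *Tekt3*, *Cfap61* and *Cfap97d1* were too dim to be tested.

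Genes of the same pathway outside the naming rule stood in lists that were set up for this work. Of 24 tested genes of other axoneme parts, 14 were higher (58.3%, against 20.3% of all genes) and 0 lower at 4 weeks by limma (16 and 0 at an unadjusted p under 0.05, median 0.28). At 8 weeks 3 were higher and 7 lower (12.5% and 29.2%, against 17.5% and 19.6% of all genes, median 0.011). Under median centring 10 were higher at 4 weeks, and 0 were higher and 10 lower at 8 weeks (median -0.24). *Spef1*, of the central pair, had 0.64 and 0.21, both called. *Ccdc151*, of the outer arm docking complex, had 0.47 and -0.34, *Spef2*, of the central pair, 0.37 and -0.36, and *Dnajb13*, of the radial spokes, 0.25 and -0.45, each called at both times in opposite directions. Of 20 tested genes of intraflagellar transport, which carries parts to the tip of motile and sensory cilia alike, 10 were higher (50%, against 20.3% of all genes) and 0 lower at 4 weeks by limma (10 and 0 at an unadjusted p under 0.05, median 0.19). At 8 weeks 2 were higher and 4 lower (10% and 20%, against 17.5% and 19.6% of all genes, median -0.048). Under median centring 4 were higher and 1 lower at 4 weeks (median 0.089), and 1 was higher and 12 were lower at 8 weeks (median -0.31). *Dync2h1*, its retrograde motor, had 0.53 (adjusted p = 0.00111) at 4 weeks and 0.044 at 8 weeks. *Ift22* had 0.25 and -0.30, both called. Between the times, 11 axoneme genes (45.8%) and 9 transport genes (45%) were lower at 8 weeks than at 4 weeks, where 17.7% of all genes were. In the other direction 0 axoneme genes and 1 transport gene (5%) were higher, where 14% of all genes were.

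Of 15 listed factors of dynein arm assembly 10 were tested, and 2 of these (20%, against 20.3% of all genes), *Zmynd10* (0.50, adjusted p = 0.000488) and *Dnaaf3* (0.30, adjusted p = 0.00778), were higher at 4 weeks. At 8 weeks 0 of 10 were called by limma, and 0 at an unadjusted p under 0.05, *Zmynd10* having -0.12, and the median was 0.041 at 4 weeks and 0.008 at 8 weeks. The first of these medians was -0.014 under median centring, and with the processed signals it was 0.28, with 6 of 10 higher.

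Markers of some cell types changed as well, and those of others changed little by loess. All 10 listed markers of mature olfactory neurons were tested, each above background on every array. At 4 weeks 7 of 10 were higher (70%, against 20.3% of all genes, 8 higher and 0 lower at an unadjusted p under 0.05, median 0.43). At 8 weeks 8 of 10 were lower (80%, against 19.6% of all genes, 0 higher and 8 lower at that level, median -0.44). *Omp*, the olfactory marker protein, had 0.89 and -0.43, *Gnal*, the G protein subunit of odour signalling, 0.61 and -0.72, and *Stoml3*, a protein of olfactory cilia, 0.44 and -0.72. The log2 of their summed intensity was 17.2 to 17.33 for DEP and 16.34 to 16.58 for control at 4 weeks, and 16.58 to 16.65 for DEP and 17.06 to 17.22 for control at 8 weeks. These directions were the same under median centring (0.32 and -0.73) and with the processed signals (0.43 and -0.54).

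Markers of multiciliated cells outside the members were present and changed little by loess. Of 12 listed, 11 were tested. At 4 weeks 3 were higher (27.3%, against 20.3% of all genes) and 0 lower by limma (against 18% of all genes, 4 and 1 at an unadjusted p under 0.05, median 0.08). At 8 weeks 2 were higher and 2 lower (18.2% each, against 17.5% and 19.6% of all genes, median -0.007). Under median centring 1 was higher and 2 were lower at 4 weeks (median 0.054), where 13.5% and 22.9% of all genes were. At 8 weeks 0 were higher and 5 lower under that scaling (median -0.28), where 9.5% and 38.2% of all genes were. By loess, *Fam183b* (0.32), *Ccdc153* (0.19) and *Pifo* (0.17) were those called at 4 weeks. *Sntn*, which marks the ciliary tip, had 0.062 and 0.13 without a call. The log2 of the summed intensity was 13.26 to 13.41 for DEP and 13.14 to 13.23 for control at 4 weeks, and 13.68 to 13.94 and 13.66 to 13.72 at 8 weeks. By their markers, both kinds of ciliated cell named above were present in the tissue.

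**Figure D5:**
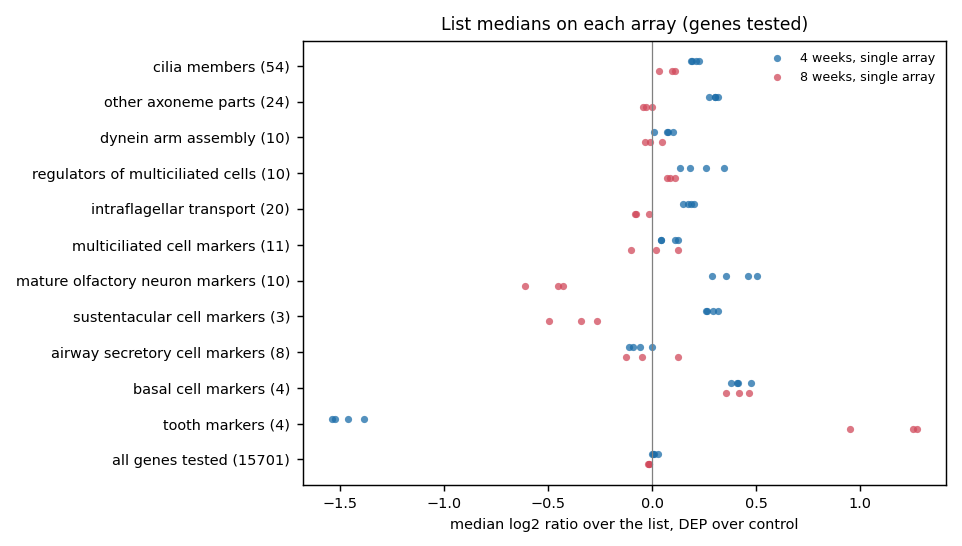
Median log2 ratio of DEP over control of each list (rows, number of tested genes in brackets), with a point per array at 4 weeks (blue, 4 arrays) and 8 weeks (red, 3 arrays). Mature olfactory neuron markers lie right of 0 at 4 weeks and left of it at 8 weeks, tooth markers the reverse, and the cilia members lie between 0.187 and 0.226 at 4 weeks and between 0.033 and 0.111 at 8 weeks.

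Markers of other cell types and tissues are set beside all genes tested, of which 20.3% were higher and 18% lower at 4 weeks. At 8 weeks 17.5% of all genes were higher and 19.6% lower. All 4 tooth markers were lower at 4 weeks (median -1.48) and higher at 8 weeks (median 1.17), with a log2 summed intensity of 12.33 to 12.48 for DEP against 13.95 to 14.06 for control at 4 weeks and 16.23 to 16.62 against 15.43 to 15.45 at 8 weeks. Of sustentacular cell markers, 3 of 3 tested were higher at 4 weeks, and 1 was higher and 2 were lower at 8 weeks. The 4 basal cell markers were higher in 2 and lower in 1 at 4 weeks and higher in 3 at 8 weeks, and immature olfactory neuron markers were higher in 2 of 4 and then in 1 of 4. Airway secretory markers (8 tested) were higher in 2 (25%) and lower in 4 (50%), then higher in 2 and lower in 2 (25% each). Squamous markers were lower in 4 and then 3 of 4, neutrophil markers in 3 and then 2 of 3, and muscle markers were lower in 1 of 3 and then lower in 2 and higher in 1. The part that cell or tissue makeup had in the values of the cilia members was not tested.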

How the data were processed

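RNA of DEP-exposed (Cy5) and control (Cy3) nasal tissue was hybridised to Agilent mouse 4x44K V2 arrays, 4 after 4 weeks and 3 after 8 weeks. The authors deposited 1 scanner table per array from Feature Extraction 10.10.1.1, whose median signals and median backgrounds are intensity values without correction and whose processed signals are background-subtracted, dye-normalized intensity values. The GeneSpring normalization of the study was not repeated. The median intensities were corrected by normexp (offset 50) in limma 3.58.1 (R 4.3.3), with the background fitted without spots marked as background outliers and then applied to every spot, and loess was used within each array to normalize the log2 ratios. Repeated spots of a probe were averaged. Of 39429 probes, 28330 were named by accession through RefSeq genes of GRCm38.p6. Array coordinates were not used. Tests covered the 25162 probes that the software marked as well above background, for DEP or control, on 3 or more of the 7 arrays. Single arrays had 18601 to 25069 probes well above background for DEP and 16985 to 26927 for control, with 0 saturated spots, and precision is limited by how many arrays there are.

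One linear model over all 7 arrays gave a mean per exposure time and their difference, tested by limma's moderated statistics with Benjamini-Hochberg adjustment. A gene stands by the brightest of its tested probes (mean intensity over all arrays), and levels of different probes were not compared. The same steps were tested on simulated data. Values on every array are given for *Foxj1*, *Cfap69*, the other members on the study's list, and the 4 members with the highest and the 4 with the lowest mean at each time. Other members are named within their group of roles or where they passed. The members and lists (regulators, dynein arm assembly, other axoneme parts, intraflagellar transport, and markers of 10 cell types) were chosen with earlier results of these data known. Alternatives were median centring, processed signals, other background corrections and filters, all probes of a gene, the methods' t-test, the replicate number as a block and each array left out.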

Additional observations from a re-analysis of the deposited data

Results flagged for a closer look

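In 4 of the 24 results looked at for this, 1 of the 4-week arrays stood apart from the other 3 by Dixon's criterion. Chance meets it in about 1 of 20 groups. That rate is no yardstick here, because members with the highest and lowest means were looked at, and a single array can set such a mean. The 4 results were *Cfap300* on replicate 1 (1.35), *Rsph14* on replicate 3 (-5.28), *Rsph6a* on replicate 4 (-1.23) and *Cfap44* on replicate 3 (-0.88). *Cfap300* was called in every fit that left out a single array, and the others were not called in the main analysis.

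The log2 ratio differed between 4 and 8 weeks, by the tested difference of both means, for *Rsph9* (-0.67), *Drc1* (-0.65), *Cfap100* (-0.65), *Cfap70* (-0.53), *Cfap69* (-0.50) and *Cfap20* (-0.41), and in the other direction for *Foxj1* (0.56) and *Dnah5* (0.61). Exposure time and slide cannot be told apart in these differences.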

How the results depend on the processing

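With each array left out in turn, the members called at 4 weeks numbered 19 to 25 higher and 0 to 1 lower (0 without replicate 1 or 2), and at 8 weeks 5 to 10 higher (5 without replicate 2) and 5 to 8 lower. Between the times 1 to 3 were higher and 9 to 15 lower. The members' median ranged from 0.179 to 0.212 at 4 weeks and 0.052 to 0.071 at 8 weeks. *Cfap69* ranged from 0.576 to 0.599, from 0.027 to 0.134 and, for the difference, from -0.56 to -0.454, and *Foxj1* from -0.191 to 0.031 (0.031 without replicate 4 of 4 weeks), from 0.425 to 0.534 and from 0.439 to 0.661.

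Median centring gave medians of 0.11 and -0.115, 14 members higher at 4 weeks, 2 higher and 16 lower at 8 weeks and 1 higher for the difference, with *Cfap69* at -0.235 and *Foxj1* at 0.143 at 8 weeks and a *Foxj1* difference of 0.336. It moved the median of all genes to -0.061 and -0.157, and the share of all genes called higher and lower to 13.5% and 22.9% at 4 weeks and to 9.5% and 38.2% at 8 weeks. The processed signals gave a 4-week median of 0.388, 0 lower calls at 4 weeks and 23 lower for the difference. Normexp on all spots gave 0.151, 0 and 7, an offset of 10 a median of 0.223, no filter 0.15 and 1 higher for the difference (*Foxj1* 0.561, adjusted p = 0.0621), and the filter on both channels 0.249 and 0 lower calls at 4 weeks. The 4-week arrays fitted alone gave 0 lower calls. All probes of a gene gave -0.133 for *Cfap69* at 8 weeks. The methods' t-test with adjustment gave 14 higher and 0 lower at 4 weeks and 5 and 4 at 8 weeks, and in its form paired within arrays 15 and 0, then 0 and 0 (*Foxj1* 0.47, adjusted p = 0.102).

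No pairing by replicate number was seen, as same-numbered arrays had correlations of -0.007, -0.008 and 0.016 between their deviations. Arrays of unlike number had -0.05 to 0.067. A pairing that leaves no trace in these deviations would be missed. With the replicate number as a block, 8 members were lower and 3 higher for the difference, with -0.509 for *Cfap69* and 0.439 for *Foxj1*. Alternatives chosen after seeing the data gave a 4-week median of 0.184 and 22 higher calls without members known by a bound only, and a median of 0.189 with no change in the counts of calls without members with 1 array apart. The causes of these shifts were not tested. Dim probes limit the reach, as 5 members were not tested.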
